A study of Mus musculus with 12 samples.

Results

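The genes described here are 10 mRNAs that are widely reported as AU-rich targets of tristetraprolin (TTP): Tnf, Il1b, Cxcl2, Il10, Ptgs2, Vegfa, Ier3, Birc3, Pim1 and Plk3. They were chosen by name, and all 10 were found among the 18194 genes that a probe set of the array names, through 14 probe sets. A gene with several probe sets was read from the one whose mean was highest, as log2 of the deposited intensity. A log2 value of 4 was taken as the floor below which a level was not read, and a gene was tested when it lay above 4 on at least 3 of the 12 arrays. Of the 10 members 6 passed this filter (Tnf, Il1b, Vegfa, Ier3, Birc3 and Pim1), and 10287 genes passed it in all. Cxcl2, Il10, Ptgs2 and Plk3 lay below log2 4 on every array and were not tested.

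The samples were bone marrow cells taken with magnetic beads against CD45R (B220), a surface protein of the B lineage, from littermate mice 4 to 6 weeks old with a background that was 94% C57BL/6. The 4 groups of 3 biological replicates were wild-type mice (wild type), carriers of Eµ-TTP-1 (TTP), precancerous carriers of Eµ-Myc (Myc), and precancerous carriers of both, Eµ-Myc;Eµ-TTP-1 (Myc TTP). Eµ is the immunoglobulin heavy chain enhancer, which is used to drive a transgene in B cells. Whether it was active in the other cells that a B220 bead column can retain was not tested. The design asks what each transgene does alone and what TTP does when Myc is present.

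TTP, encoded by Zfp36, is a zinc finger protein that binds AU-rich elements in the 3' ends of short-lived mRNAs. It recruits the CCR4-NOT deadenylase, and the mRNA then loses its poly(A) tail and is degraded. Tnf is the best known target, since mice without TTP accumulate Tnf mRNA in macrophages and become inflamed. Most of the 10 mRNAs are made in bursts after a signal such as NF-κB, so that their level depends on transcription as well as on decay, and several belong more to myeloid cells than to resting B cells. The array reads the steady level of an mRNA and not its half-life. In bulk samples fewer cells of a type and less RNA per cell cannot be told apart.

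Some arrays stood apart from their groups before any comparison was made. Myc mRNA lay at log2 9.65 and 9.68 on wild-type arrays 1 and 2 and at 12.65 on the array labelled wild type 3. It lay at 10.05 and 10.39 on TTP arrays 1 and 2 and at 13.47 on the array labelled TTP 3, against 12.99 to 13.92 on the Myc arrays and 11.82 to 13.37 on the Myc TTP arrays. All 4 arrays numbered 3 carried both Xist and a Y-linked gene above the floor, and no other array did. Zfp36 itself was not higher with the TTP transgene, with group means of 10.11 (wild type), 9.85 (TTP), 9.54 (Myc) and 8.42 (Myc TTP). It is not known whether its probe set reads the transgene, and the TTP labels are therefore unchecked. The main results below are given with all arrays, and those that wild type 3 or TTP 3 move most are also given without both. On each array 46.0% to 48.7% of probe sets exceeded the floor.

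Promoter sequences are shown for 5 members with 1 of 3 short motifs before the start, because the members that lay lowest with Myc did so together and because Myc is a factor that binds the E-box CACGTG. The windows run from 250 bases before to 50 bases after each RefSeq start on GRCm38.p6, 11 windows for 9 of the members, and both strands were searched. The motif GGAATTTCC, a form of the NF-κB site, was found in the windows of Ier3 and Cxcl2 and in 0.317% of all 32851 windows. CACGTG was found for Pim1 and Ptgs2 and in 7.15% of all windows, and the TATA box TATAAA for Tnf and Il1b and in 13.6%. Capitals mark the motif, and each sequence is written 5′ to 3′ along the gene. The Ptgs2 match lies after the start and is not shown. A match is a description of the sequence and no evidence that a factor is bound. The first is from chr17:35821549-35821607 on the plus strand, 139 bases before the start of Ier3.
Ier3: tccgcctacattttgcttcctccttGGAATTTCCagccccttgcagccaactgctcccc
The next is from chr5:90903778-90903836, plus strand, 96 bases before the start of Cxcl2.
Cxcl2: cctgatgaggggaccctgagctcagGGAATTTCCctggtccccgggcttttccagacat
The Pim1 match, chr17:29493002-29493057 on the plus strand, lies 58 bases before one of its RefSeq starts.
Pim1: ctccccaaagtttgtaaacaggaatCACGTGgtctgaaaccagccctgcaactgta
The TATA box of Tnf, chr17:35202008-35202061 on the minus strand, begins 29 bases before the start.
Tnf: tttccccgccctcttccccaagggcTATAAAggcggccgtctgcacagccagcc
The TATA box of Il1b, chr2:129371140-129371195 on the minus strand, begins 31 bases before the start.
Il1b: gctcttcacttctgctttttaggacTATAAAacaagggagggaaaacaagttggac

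Among the reported targets, the survival gene Birc3 fell in Myc marrow B220+ cells, and no member differed past the threshold with the TTP transgene on all 12 arrays. The Birc3 call was lost under several other settings, and 10.6% of all tested genes were called lower in the same comparison. The other members fell into 3 kinds. Pim1, Ier3 and Tnf lay lower on every Myc array than on every wild-type array without passing the test. So did Birc3, and 41.3% of all tested genes lay lower in this way. The Myc values of Tnf were all below the floor. Il1b and Vegfa overlapped between those groups, and the 4 members below the floor gave no level to compare. Differences were tested with limma on all 12 arrays, with Benjamini-Hochberg adjustment over the 10287 genes, and a gene was called at an adjusted p under 0.05.

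**Figure D1:**
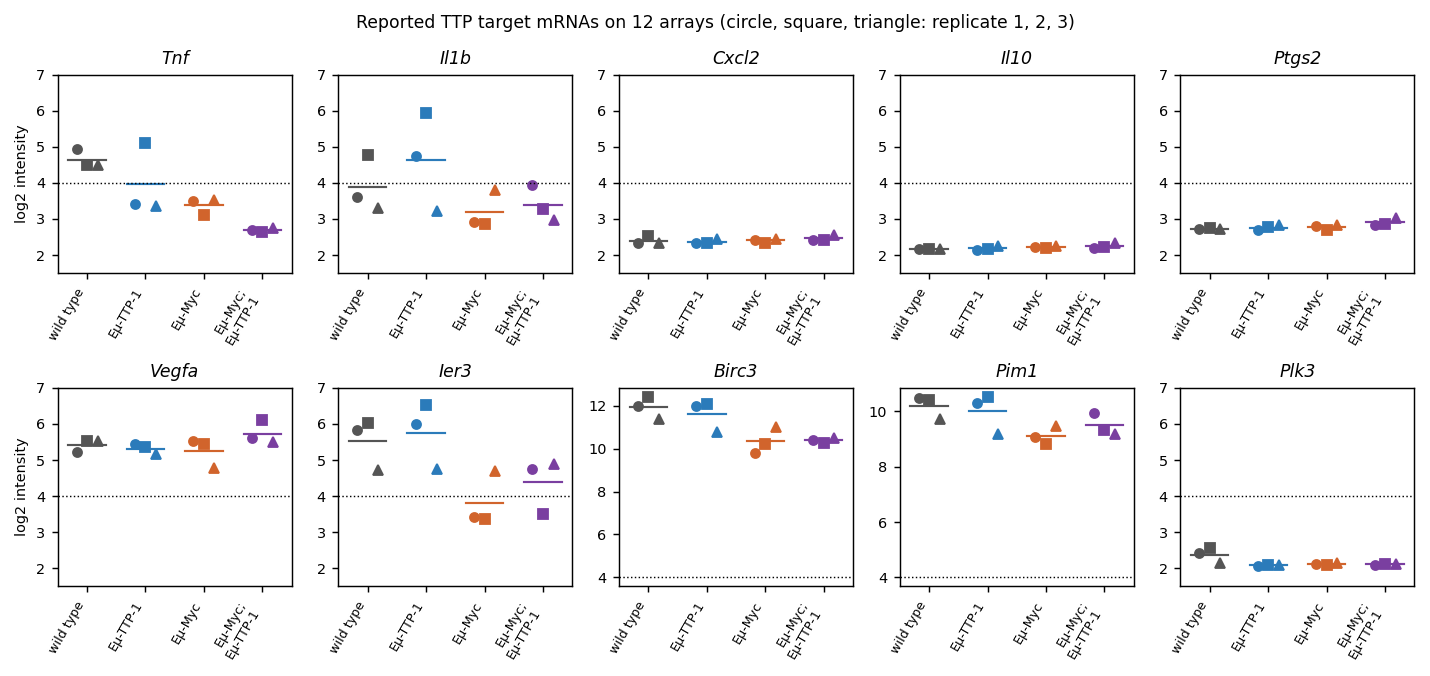
Log2 intensity of the 10 members (vertical axis) on each of 12 arrays, by group (horizontal axis). Symbols give the replicate, bars the mean of 3 arrays and the dotted line the floor of log2 4. Cxcl2, Il10, Ptgs2 and Plk3 lie below the floor throughout, and Birc3 lies at 9.82 to 11.02 on the Myc arrays against 11.36 to 12.41 on the wild-type arrays.

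Birc3 encodes cIAP2, a ubiquitin ligase that keeps TNF receptor signalling on the side of survival. In wild type it measured log2 11.99, 12.41 and 11.36, in TTP 11.99, 12.08 and 10.78, in Myc 9.82, 10.22 and 11.02, and in Myc TTP 10.39, 10.25 and 10.50. All 6 arrays with the Myc transgene lay below all 3 wild-type arrays, and the arrays numbered 3 narrowed the gap between wild type and Myc from both sides. From wild type to Myc, Birc3 fell by 1.57 ± 0.39 log2 units (SE, 3 against 3 arrays), a 2.96-fold lower level (limma adjusted p = 0.0479). This was 1 of 6 tested members called lower, where 10.6% of all tested genes were called lower in the same comparison. The call is fragile: with the replicate number as a block the adjusted p was 0.0637, and after quantile normalization 0.0624. The arrays wild type 3 and TTP 3 were then left out, which was decided after seeing the data. Both stood apart by a high Myc signal, so their omission can in itself add calls with Myc. Without them 4 of the 6 were called lower (Birc3, Pim1, Ier3 and Tnf), where 34.3% of all genes were called lower and 14.0% higher. Tnf passed the filter through arrays without the Myc transgene, so its call is in part a condition of its being tested.

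The second probe set of Birc3 gave the same picture on its own scale. It lay at log2 8.14, 8.18 and 7.45 on wild-type arrays and at 5.51, 6.24 and 6.73 on Myc arrays, with no overlap. In a fit of all probe sets its difference was -1.76 ± 0.48, beside -1.57 ± 0.39 for the first, and both had an adjusted p of 0.0607. Birc2, which encodes the related cIAP1 and lies beside Birc3 on the chromosome, fell by 0.76 ± 0.21 (adjusted p = 0.0482).

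Pim1, a constitutively active serine/threonine kinase that cooperates with Myc in mouse lymphoma, was also lower with Myc. It lay at log2 10.48, 10.43 and 9.73 in wild type, 10.32, 10.52 and 9.17 in TTP, 9.07, 8.81 and 9.48 in Myc, and 9.95, 9.34 and 9.19 in Myc TTP. Every Myc array lay below every wild-type array, while Myc TTP overlapped with wild type and with TTP. Myc over wild type was -1.09 ± 0.36, which did not pass (adjusted p = 0.0620). It was -1.33 without wild type 3 and TTP 3 (adjusted p = 0.00321), where 34.3% of all tested genes were called lower. The second Pim1 probe set gave -1.21 ± 0.31 (adjusted p = 0.0607, over all probe sets). Pim2, a family member with the same kind of activity, fell by 1.42 ± 0.35 (adjusted p = 0.0479), where 10.6% of all tested genes were called lower. The Pim2 call was lost with no filter, quantile normalization, no trend or the replicate block. Pim3, another PIM kinase, went the other way at 0.51 ± 0.29 and did not pass (limma adjusted p = 0.198).

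Ier3, an immediate early gene that modulates cell death and NF-κB signalling, was near the floor. Its values were 5.83, 6.02 and 4.73 in wild type, 6.00, 6.53 and 4.75 in TTP, 3.42, 3.36 and 4.69 in Myc, and 4.75, 3.51 and 4.88 in Myc TTP. On 3 arrays, Myc 1, Myc 2 and Myc TTP 2, it was below the floor. The arrays labelled wild type 3 (4.73) and Myc 3 (4.69) were nearly level, so the separation of these groups rests there on a gap far smaller than the spread within either. With each Myc array set to the floor or to its own value if higher, Ier3 was at least 2.46-fold lower in Myc than in wild type (fitted log2 difference -1.70 ± 0.57, adjusted p = 0.0628). Without wild type 3 and TTP 3 the difference was -2.10 (adjusted p = 0.00781), where 34.3% of all tested genes were called lower.

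Tnf, the cytokine through which TTP's role was found, was close to the floor. It lay at 4.95, 4.49 and 4.50 in wild type and at 3.43, 5.10 and 3.36 in TTP. In Myc it was 3.49, 3.12 and 3.52 and in Myc TTP 2.70, 2.63 and 2.76, all of them below the floor. The gene passed the filter through 3 wild-type arrays and 1 TTP array, so its higher level there is in part a condition of its being tested. Against the floor, set in the same way, Tnf was at least 1.56-fold lower in Myc than in wild type (log2 difference -1.27 ± 0.40, adjusted p = 0.0568). In all, 4 of the 6 tested members (Tnf, Ier3, Birc3 and Pim1) lay lower on every Myc array than on every wild-type array and 0 lay higher, where 41.3% of all tested genes lay lower and 3.49% higher. A separation of these groups is therefore common on these arrays, and the members' share cannot be read as theirs alone.

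Il1b, an inflammatory cytokine of myeloid cells that caspase-1 activates, was above the floor on 3 arrays. It lay at 3.60, 4.78 and 3.30 in wild type, 4.76, 5.93 and 3.23 in TTP, 2.91, 2.85 and 3.80 in Myc, and 3.94, 3.29 and 2.96 in Myc TTP. The 3 arrays above the floor were wild type 2, TTP 1 and TTP 2. Cxcr2, the neutrophil receptor of Cxcl2, and Ptger2, a prostaglandin E2 receptor, were above the floor on the same 3 arrays. Those were also the 3 arrays with the highest mean of the granulocyte markers (13.75, 13.84 and 14.09, the other arrays 6.99 to 13.41) and of the monocyte and macrophage markers (9.19, 9.33 and 9.88, the other arrays 5.85 to 8.95). The NK and T markers were highest on the same arrays too (6.32, 6.16 and 6.82, the other arrays 3.22 to 5.76). The match was thus not particular to myeloid markers. The part of any of these cells in the Il1b signal was not tested. No difference in Il1b passed. TTP minus wild type was 0.74 ± 0.63 (limma adjusted p = 0.9999), and Myc minus wild type was -0.71 ± 0.63 (adjusted p = 0.399). Single arrays moved both: TTP minus wild type was 0.097 without TTP 2 and 1.45 without TTP 3, and Myc minus wild type was -0.27 without wild type 2 and -1.02 without Myc 3. Most of these Il1b values lie below the floor, so the sizes are fitted values and not measured levels.

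The secreted and inducible members Cxcl2, Il10 and Ptgs2 and the stress-responsive polo-like kinase Plk3 gave no level. Cxcl2, a chemokine that attracts neutrophils, lay between 2.32 and 2.56 on all arrays. Il10, a cytokine that restrains inflammation, lay between 2.14 and 2.34. Ptgs2, the inducible cyclooxygenase of prostaglandin synthesis, lay between 2.69 and 3.04 by its higher probe set and between 2.15 and 2.37 by its lower one. Plk3 lay between 2.08 and 2.56. Such values are those of probe sets without signal in this summary, so a decay of these mRNAs by TTP could not have been seen.

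Vegfa, the angiogenic growth factor, differed little between wild type and Myc. It was 5.22, 5.53 and 5.52 in wild type, 5.45, 5.36 and 5.15 in TTP, 5.54, 5.45 and 4.79 in Myc, and 5.60, 6.10 and 5.49 in Myc TTP. The first 3 groups overlapped, and the Myc TTP arrays lay just above the TTP arrays. Myc over wild type was -0.16 ± 0.25 (adjusted p = 0.645, 0.31 after quantile normalization, a change of sign). Its second probe set, at 2.80 to 3.21, was below the floor on every array.

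With the TTP transgene no member passed in any comparison on all 12 arrays. Limma called 0 of 6 for TTP over wild type, for Myc TTP over Myc, for TTP averaged over both backgrounds and for the interaction, where 0% of all tested genes were called in each. At an unadjusted p under 0.05 the limma counts were 0, 0, 1 and 0 of 6, where 1.45%, 19.1%, 5.67% and 13.1% of all tested genes were. Between wild type and TTP all 6 members overlapped, where 0.603% of genes lay higher and 3.65% lower on every TTP array. Median differences of the 6 members and of all tested genes were -0.15 and -0.06 for TTP over wild type, and 0.29 and 0.27 for Myc TTP over Myc.

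The 1 member with an unadjusted p under 0.05 was Tnf, averaged over both backgrounds, and most of its values are below the floor. Its fitted log2 difference was -0.68 between TTP and wild type (95% interval -1.57 to 0.21) and -0.68 between Myc TTP and Myc (-1.57 to 0.21). Averaged over both backgrounds the difference was -0.68 ± 0.28, with an unadjusted p of 0.0360 and an adjusted p of 0.814 by limma. All 3 Myc TTP arrays (2.63 to 2.76) lay below all 3 Myc arrays (3.12 to 3.52), as 1 of 6 members did, where 1.41% of genes lay lower and 32.3% higher. All 6 of these arrays are below the floor, so their order is not read as a difference in level and no fold is given. TTP 2 had the highest Tnf value of all arrays (5.10), while TTP 1 and TTP 3 were below the floor. Without TTP 2 the Tnf difference of TTP over wild type was -1.25, without TTP 1 it was -0.41 and without TTP 3 it was -0.38, and none passed.

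The intervals of Birc3, Pim1 and Vegfa, which were above the floor on every array, show what the arrays could have missed. Birc3 differed by 0.029 between Myc TTP and Myc (95% interval -0.83 to 0.89) and by -0.30 between TTP and wild type (-1.17 to 0.56). Pim1 differed by 0.37 (-0.43 to 1.17) and by -0.21 (-1.005 to 0.59). Vegfa differed by 0.47 (-0.091 to 1.03) and by -0.10 (-0.66 to 0.46). All of these intervals reach across 0. For Ier3, with 3 arrays below the floor, the fitted differences were 0.56 (-0.70 to 1.82) and 0.23 (-1.03 to 1.49). Without wild type 3 and TTP 3 the differences of TTP over wild type were -0.17 for Birc3, -0.033 for Pim1, 0.030 for Vegfa, 0.34 for Ier3, -0.45 for Tnf and 1.15 for Il1b, and none passed. Interactions of the members ran from -0.53 ± 0.89 (Il1b) to 0.58 ± 0.51 (Pim1), with adjusted p-values of 0.459 and above.

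**Figure D2:**
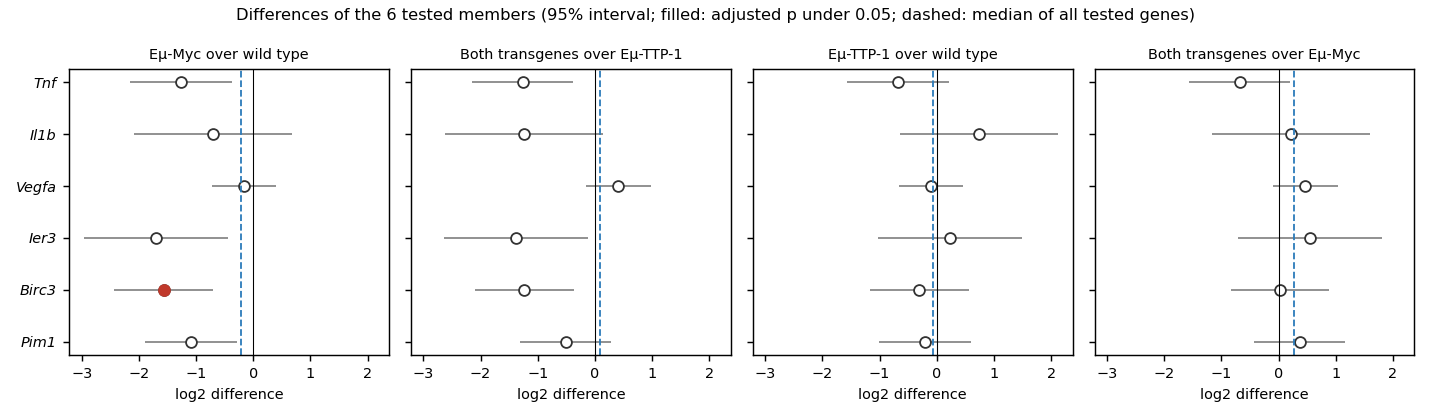
Log2 differences of the 6 tested members (horizontal axis) in 4 comparisons, with 95% intervals of the limma fit. The filled point passed at an adjusted p under 0.05, and the dashed line is the median of all tested genes. Birc3 in Eµ-Myc over wild type (-1.57) is the point that passed, and the intervals of both TTP comparisons reach across 0 for all 6 genes.

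Between the groups that both carry TTP no member passed. Myc TTP over TTP was -1.23 ± 0.39 for Birc3 (adjusted p = 0.0663), -1.27 ± 0.40 for Tnf (0.0667), -1.38 ± 0.57 for Ier3 (0.115), -1.24 ± 0.63 for Il1b (0.173) and -0.51 ± 0.36 for Pim1 (0.316). Limma called 0 of 6, where 0% of all tested genes were called, and 3 of 6 were at an unadjusted p under 0.05, where 36.0% of genes were. Birc3 and Tnf lay lower on every Myc TTP array than on every TTP array, where 5.36% of genes did. For Tnf only TTP 2 of these 6 arrays is above the floor, so neither its order nor its -1.27 is read as a difference in level. Vegfa lay higher on every one, by 0.41 ± 0.25 (adjusted p = 0.257), where 30.6% of genes did. Without the array labelled TTP 3, 5 members were called lower, all but Vegfa, where 19.9% of genes were called lower. Of these, Tnf and Il1b passed the filter through arrays without the Myc transgene, so their calls are in part a condition of their being tested. Birc3 was then -1.65 (adjusted p = 0.0137), Pim1 -0.93 (0.0339) and Ier3 -1.88 (0.0264). Myc over wild type and Myc TTP over TTP share no array, while each shares its arrays with a TTP comparison. Their tests are still not independent, since the fit uses 1 estimate of the spread from all 4 groups. Without TTP 3 the members called in Myc over wild type rose from 1 to 4, where 35.1% of all genes were called.

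The 5 members other than Vegfa varied together over the arrays, with r from 0.55 (Il1b with Tnf) to 0.92. Pearson's r over the 12 arrays was 0.92 for Birc3 with Ier3, 0.89 for Ier3 with Pim1, 0.88 for Birc3 with Pim1, and 0.83 for Il1b with Pim1. It was 0.78 for Birc3 with Tnf, and -0.33 for Tnf with Vegfa. These are descriptions without a test, since the arrays share their groups and the shift of the arrays numbered 3. Tnf was above the floor on 4 of the 12 arrays and Il1b on 3, so their correlations rest largely on values that are not read as levels. The tested genes with the pattern most like Birc3 were Dennd1c (r = 0.99), Nfkbid, a nuclear IκB protein (0.99), and Egr1, an immediate early transcription factor (0.99). For Pim1 they were Arhgap18 (0.99), Mrtfa (0.99) and Cmtm7 (0.99), and for Ier3 Neurl3 (0.97), Slc46a3 (0.97) and Unc13d (0.97). For Il1b they were Clca3a1 (0.97), Fzd7 (0.96) and Fam102a (0.96). Tnf had no gene above Parp3 (0.90), followed by Tsc22d3 (0.90) and Camta2 (0.89), and Vegfa was most like Zfp1 (0.94), Nosip (0.92) and Zc3h10 (0.92).

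Other mRNAs reported as TTP targets were taken from a list of 40, of which 22 were tested. The 22 include Myc and Zfp36, the genes of the transgenes, so the result of Myc is in part set by the design. In Myc over wild type 5 of 22 fell and 17 did not pass, where 10.6% of all tested genes fell (median -0.78 against -0.21). With no filter, quantile normalization, no trend or the replicate block 0 were called. Mmp9, the gelatinase of neutrophils, had a log2 difference of -4.61 ± 1.18. The difference was -3.25 ± 0.84 for the NF-κB inhibitor Tnfaip3 (A20), -3.04 ± 0.82 for the germinal centre repressor Bcl6, -1.41 ± 0.40 for the Hippo kinase Lats2 and -1.38 ± 0.40 for the interferon factor Irf1. Their limma adjusted p-values lay between 0.0479 and 0.04998. Without wild type 3 and TTP 3, 14 of the 22 were called lower and 1 higher, where 34.3% of genes were lower and 14.0% higher. Without Myc 3, the difference was -4.30 for Tnfaip3 and -4.07 for Bcl6. Cytokines and chemokines of the list (Csf2, Il2, Il3, Il6, Il17a, Il23a, Ifng, Lif, Ccl2, Ccl3, Ccl4, Ccl20, Cxcl1 and Cxcl5) were below the floor on every array, as were Cxcl2 and Il10 among the members. The chemokine Cxcl10 was above it on all 12 arrays, at 5.25 to 6.07.

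With TTP 0 of the 22 other targets passed in either comparison, with 0 at an unadjusted p under 0.05 for TTP over wild type and 4 for Myc TTP over Myc, where 1.45% and 19.1% of genes were. Nearest in Myc TTP over Myc was Ccnd1, which encodes cyclin D1 of the G1 phase. It was 10.22, 9.48 and 8.25 on the Myc arrays, 7.52, 7.39 and 7.54 on the Myc TTP arrays, 7.94, 8.23 and 7.89 in wild type, and 7.47, 8.19 and 7.71 in TTP. All 3 Myc arrays lay above all other 9, though Myc 3 by a small margin. The difference of Myc TTP over Myc was -1.83 ± 0.40 (adjusted p = 0.172). Without Myc 3 it was -2.37 (adjusted p = 0.0161), and without Myc 1 it was -1.38 (0.337). For Zfp36 it was -1.12 ± 0.39 (0.197). In the other direction E2f1, a cell cycle transcription factor, was 0.52 ± 0.17 higher (0.181), and Mmp9 2.21 ± 1.18 higher (0.324). For TTP over wild type the smallest p in each direction was that of Junb (-0.50 ± 0.27), followed by Zfp36l1 (-0.33 ± 0.30), and of Hif1a (0.41 ± 0.34), followed by Myc (0.65 ± 0.95), each with an adjusted p of 0.9999. Hif1a turned to -0.091 without wild type 3 and TTP 3.

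**Figure D3:**
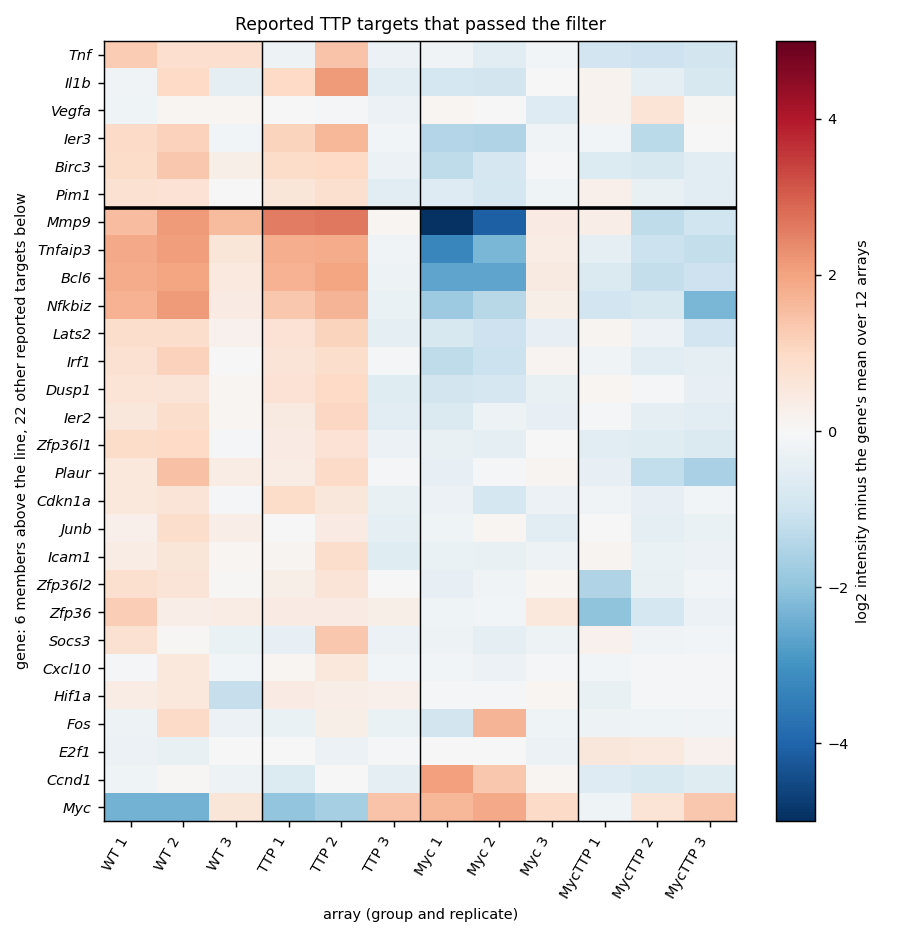
Log2 intensity minus each gene's mean over 12 arrays (colour, log2 units), for the 6 tested members above the line and 22 other reported targets below it, by array (horizontal axis). Tnfaip3 is at 6.17 on Myc 2 against 10.35 and 10.55 on wild type 1 and 2, and Ccnd1 is highest on Myc 1 (10.22) and Myc 2 (9.48).

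In Myc TTP over TTP the other targets gave 0 of 22 called and 8 at an unadjusted p under 0.05 by limma, where 36.0% of genes were. Plaur, the urokinase receptor, differed by -1.51 ± 0.39 (adjusted p = 0.0607), Zfp36 by -1.43 ± 0.39 (0.0607) and E2f1 by 0.55 ± 0.17 (0.0641). With wild type 3 and TTP 3 omitted the count was 14 lower and 2 higher, where 21.9% of genes were lower and 21.0% higher.

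Of 24 listed genes that receive or process the members' signals or are their relatives, 21 were tested. In Myc over wild type 4 fell and 17 did not pass, where 10.6% of genes fell (median -0.97 against -0.21). Besides Pim2 and Birc2, these were the prostaglandin E2 receptor Ptger4, by 1.90 ± 0.47, and the TNF receptor Tnfrsf1b, by 0.97 ± 0.27 (adjusted p = 0.0479 for both). All 4 calls were lost with no filter, quantile normalization, no trend or the replicate block. The count was 13 lower and 1 higher without wild type 3 and TTP 3, where 34.3% and 14.0% of genes were. In TTP over wild type and in Myc TTP over Myc 0 of 21 passed, with 0 and 2 at an unadjusted p under 0.05 by limma, where 1.45% and 19.1% of genes were. Without the 4 arrays numbered 3, Myc TTP over Myc gave 3 of 21 called higher and 0 lower. Of all tested genes 1455 were higher and 59 lower there. In Myc TTP over TTP 0 of 21 passed, with 8 at an unadjusted p under 0.05, where 36.0% of genes were. Nearest there were Pim3, a PIM kinase, at 1.13 ± 0.29, and Tnfrsf1a, the other TNF receptor, at -2.54 ± 0.70 (adjusted p = 0.0607 for both). With wild type 3 and TTP 3 omitted, 14 were called lower and 2 higher, where 21.9% and 21.0% of genes were.

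Of 16 proteins that bind AU-rich elements, regulate TTP or degrade its targets, 15 were tested. In Myc over wild type 2 fell and 13 did not pass, where 10.6% of genes fell (median -0.10 against -0.21). Both calls were lost with no filter, quantile normalization, no trend or the replicate block. They were Tia1, a translational silencer of AU-rich mRNAs, by 0.54 ± 0.12 (adjusted p = 0.0479), and Mapkapk2 (MK2), the kinase that phosphorylates and inactivates TTP, by 1.01 ± 0.29 (0.0491). In TTP over wild type 0 of 15 passed, and in Myc TTP over Myc 0 of 15, with 1 and 5 at an unadjusted p under 0.05 by limma, where 1.45% and 19.1% of genes were. Without the 4 arrays numbered 3, Myc TTP over Myc gave 1 of 15 called higher and 1 lower. Of all tested genes 1455 were higher and 59 lower there. In Myc TTP over TTP 0 of 15 passed, with 7 at an unadjusted p under 0.05, where 36.0% of genes were. Nearest in the higher direction were Khsrp (KSRP), a decay factor, at 0.42 ± 0.10, and the decapping enzyme Dcp2, at 0.54 ± 0.14 (adjusted p = 0.0607 for both). In the lower direction were Zfp36 at -1.43 ± 0.39 (limma adjusted p = 0.0607), Zfp36l1 at -0.91 ± 0.30 (0.0708) and Zfp36l2 at -0.99 ± 0.33 (0.0713). With wild type 3 and TTP 3 omitted, 4 were called lower and 2 higher, where 21.9% and 21.0% of genes were.

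Markers of other cells moved with these results. The counts of markers that fell are those called lower in Myc over wild type, where 10.6% of all tested genes were. With no filter, quantile normalization, no trend or the replicate block 0 genes were called there, so the marker calls were lost too. All 9 B-lineage markers found were above the floor on every array. Their mean was 12.62 to 13.28 in wild type and 11.41 to 12.46 in Myc, and 6 of the 9 fell. The 11 granulocyte markers had a summed intensity of 227367 to 316130 in wild type, 179486 to 357110 in TTP, 9284 to 213242 in Myc and 106038 to 159799 in Myc TTP. Of them 7 fell in Myc over wild type, and 7 of 11 were above the floor on every array. The 8 monocyte and macrophage markers summed to 22711 to 38678 in wild type and 2113 to 18273 in Myc, and 3 of the 8 fell. The 8 plasmacytoid dendritic cell markers summed to 23920 to 39560 and 7973 to 17756, with 6 of 8 lower. The 7 erythroid markers summed to 6307 to 14467 and 334 to 8206, with 1 of 7 lower. The NK and T markers Cd3e and Cd3g were below the floor on all arrays, and 1 of 4 tested markers of that list fell. Of 5 tested plasma cell markers 4 fell, and Tnfrsf17 was below the floor on all arrays. On Myc 3, where Birc3, Pim1 and Ier3 were the highest of the Myc arrays, the granulocyte sum was 213242, against 9284 and 23861 on Myc 1 and 2. The part of these cells in the members' differences was not tested.

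**Figure D4:**
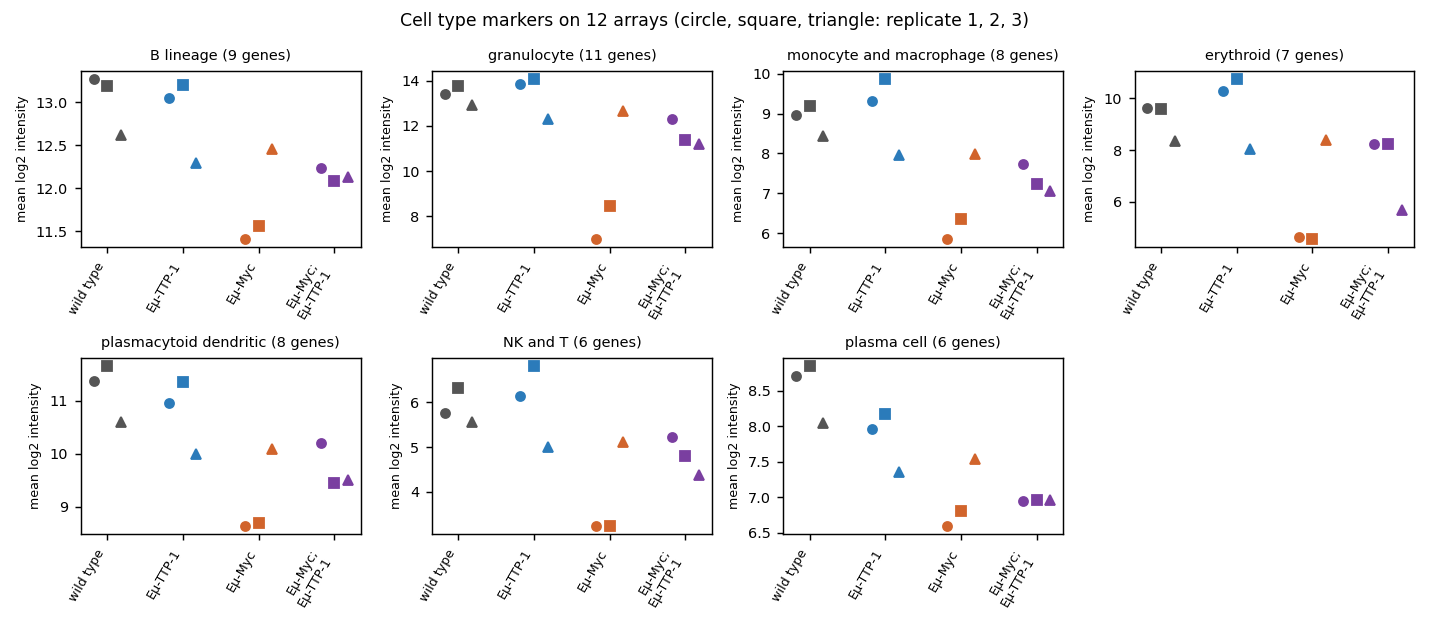
Mean log2 intensity of 7 lists of cell type markers (vertical axes, scaled for each list) on 12 arrays, by group (horizontal axis), with symbols for replicates. In each of the 7 lists Myc 1 and Myc 2 are the lowest arrays and Myc 3 lies above them, as for granulocyte markers at 12.64 against 6.99 and 8.47.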

How the data were processed

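Total RNA of 12 samples was hybridised to 1 Affymetrix array each. The values are GCRMA summaries per the submitters' processing notes, deposited by the authors as linear intensity. Builds and further steps are not stated in the labels. GCRMA normalizes between arrays, so a change in total RNA cannot be seen, and signals near its lowest values are compressed. Log2 was taken with no pseudocount. Probe sets with 1 gene symbol (34958 of 45101) were used, with symbols updated through Entrez identifiers for 34754 of them, and 932 with several symbols and 9211 with none were not.

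Members and gene lists were chosen with earlier results of these data known. Limma 3.58.1 in R 4.3.3 (lmFit, eBayes with an intensity trend, two-sided) was fitted on 4 group means with 8 residual degrees of freedom over 10287 genes, and checked on simulated data. Errors are SE of the fit. Named genes are all 10 members, up to 4 called genes of each other list (5 among the other targets, Irf1 having been added after its values were seen) or else the 2 of smallest p in each direction, of which a part is given, and the 3 genes most correlated with each member. Promoters are from RefSeq. Labels call the replicates biological. The 3 arrays per group limit the precision, and the arrays that stood apart from their groups moved the results as well. Residuals of same-numbered wild-type and TTP arrays correlated at 0.498, 0.664 and 0.821, and those of wild-type and Myc arrays at -0.434, -0.281 and -0.630. The wild-type and TTP numbers thus meet the criterion of all 3 above 0.1, and no other pair of groups does. Unlike numbers correlated too, at 0.433 for wild type 1 with TTP 2 and 0.512 for wild type 2 with TTP 1. Where only 1 of the wild-type and TTP arrays was numbered 3, the values were -0.556 to -0.726. The criterion therefore cannot tell a pairing from a shift that the arrays numbered 3 share. The labels give no pairing, so the block is an alternative. Other alternatives were the filter, quantile normalization, the probe set, the trend and each array left out.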

Additional observations from a re-analysis of the deposited data

How the results depend on the processing

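Tnf, Il1b, Ier3, Birc3 and Pim1 stayed lower in Myc than in wild type under every setting run, while the calls did not hold. Tnf and Il1b passed the filter through arrays without the Myc transgene. Their lower values and their calls with Myc are thus in part a condition of their being tested, and most of their values lie below the floor. For Myc over wild type 1 member was called, and 0 with no filter, quantile normalization, the most variable probe set, no trend, the replicate block or every probe set tested. Without single arrays the count ran from 0 to 4 (4 without TTP 3, 3 without wild type 3 or Myc 3, 2 without TTP 2, 0 without any other). Over all genes 1135 were called, and 0 under those settings except every probe set (2 of 22245 probe sets). Quantile normalization moved the median of all genes from -0.21 to 0.04. Choices made after the data were seen gave 4 members when wild type 3 and TTP 3 were omitted and 5 when all 4 arrays numbered 3 were, where 48.3% and 54.7% of all genes were called. For Myc TTP over TTP 0 became 5 in both of these (42.9% and 45.5% of genes), and 0 to 5 without single arrays (5 without TTP 3, with 38.4% of genes). For Myc TTP over Myc 0 became 1 without the arrays numbered 3, namely Pim1, which was called higher and not lower. In that setting 14.7% of genes were called, 1455 of them higher and 59 lower. The replicate block changed no other count of members.

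Small differences changed sign. Vegfa in Myc over wild type was 0.31 after quantile normalization, 0.12 without the arrays numbered 3, and -0.30 to 0.075 without single arrays. In TTP over wild type it was 0.030 in both of the settings chosen afterwards. Hif1a was there -0.091 in both settings, and -0.12 to 0.71 without single arrays. Without single arrays that comparison ran from -0.17 to 0.74 for Ier3, -0.58 to 0.11 for Birc3, -0.47 to 0.21 for Pim1 and -0.44 to 1.64 for Myc. In Myc TTP over Myc quantile normalization gave -0.011 for Il1b and -0.20 for Birc3, and single arrays -0.059 to 0.52 and -0.24 to 0.36. Averaged over backgrounds, Birc3 was 0.068 without the arrays numbered 3 and -0.28 to 0.070 without single arrays, and Pim1 was -0.0053 after quantile normalization and -0.049 to 0.29. Interactions ran from -0.30 to 0.57 for Tnf, -1.23 to 0.12 for Il1b, -0.18 to 0.76 for Ier3 and -0.083 to 0.67 for Birc3. The cause was not tested.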
